A study of Mus musculus with 57 samples.

Results

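Genes of the surface and effector functions of monocytes and macrophages were followed through 2 mouse models of acute myeloid leukemia and the tissues that precede it. The 8 genes were Ccr2, Cx3cr1, Csf1r, Fcgr1, Clec4a3, Cd68, F13a1 and Ccl9, taken by name on every probe set that names only that gene. They occupied 16 of the 34842 single-gene probe sets of the array and were 8 of the 18165 genes measured. Ccr2 had 4 probe sets, Csf1r had 3, Cx3cr1, Fcgr1 and Ccl9 had 2 each, and the other members had 1 each. The probe set with the highest mean on the 57 arrays stands for its gene, and the remaining probe sets are described separately. Values are log2 signals, so a difference of 1 is a doubling of signal, and levels are compared between groups for a single probe set, never between genes.

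CA10 mice carry the fusion gene CALM-AF10, and NHD13 mice carry the fusion gene NUP98-HOXD13. Both transgenes are driven by the vav promoter, which is active in blood-forming cells, and the labels name no treatment. Leukemic spleen came from CA10 mice (6 arrays) and NHD13 mice (6) killed when they showed signs of leukemia. Healthy spleen came from CA10 mice without such signs (5) and from wild-type mice (2). Lineage-negative marrow is bone marrow depleted of mature blood cells, and each of CA10, NHD13 and wild type had 3 arrays of it. The whole marrow arrays numbered 3 for CA10, 3 for NHD13, 3 for wild-type C57B6 and 6 for other wild-type mice. The thymus arrays numbered 4 for CA10, 3 for NHD13 and 7 for wild type. Transgenic marrow and thymus were taken without clinical signs and are called pre-leukemic here. Wild-type tissue came from litter mates of matched age where that was possible. Ages are not given in the labels, and strain is given only for the C57B6 marrows. Whether arrays of a group come from different mice is not in the labels, and the p-values therefore rest on the spread from array to array.

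Monocytes are made in the marrow from progenitors under the growth factor CSF1, leave it through the chemokine receptor Ccr2, and become macrophages or circulate as patrolling cells that carry Cx3cr1. Csf1r is the receptor for CSF1, Fcgr1 is the high-affinity receptor for IgG, and Clec4a3 is a C-type lectin receptor of the Dcir family. Cd68 is a glycoprotein of macrophage lysosomes, F13a1 is the catalytic subunit of coagulation factor XIII, and Ccl9 is a CC chemokine of mouse myeloid cells. In leukemias of the myeloid lineage such genes are used to describe monocytic differentiation, and spleen also holds resident macrophages that carry several of them.

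The start regions of the members were searched for short motifs of myeloid regulators, since all 8 had higher means in CA10 than in NHD13 leukemic spleen. Windows of 300 bases, from 250 before to 50 after a RefSeq transcription start (GRCm38.p6), were searched for 7 of the 8 members, with 9 windows in all. These members were Ccr2, Cx3cr1, Fcgr1, Clec4a3, Cd68, F13a1 and Ccl9. Csf1r was left out of the search, and its start region is not described here. The motif AGGAAGT, a core of the ETS factor PU.1, was in 9.35% of the 32851 mouse windows on either strand. TTGCNNAA, a C/EBP-like motif, was in 10.8%, and an IRF-like motif, TTTC then any 2 bases then TTTC again, was in 3.44%. These motifs share no letters at the matches found here. Clec4a3 and Cd68 are shown because they differed most between the leukemias, and F13a1 and Fcgr1 because they hold the PU.1 core. Capitals mark a motif match, and each sequence is the strand of the gene.
Clec4a3, chr6:122952265-122952564, plus strand: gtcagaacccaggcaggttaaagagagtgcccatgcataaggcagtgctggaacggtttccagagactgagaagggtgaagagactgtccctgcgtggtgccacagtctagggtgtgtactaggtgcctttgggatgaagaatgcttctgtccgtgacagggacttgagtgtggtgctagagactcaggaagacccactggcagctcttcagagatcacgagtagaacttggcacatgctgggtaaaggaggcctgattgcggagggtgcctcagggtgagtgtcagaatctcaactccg
Cd68, chr11:69666121-69666420, minus strand: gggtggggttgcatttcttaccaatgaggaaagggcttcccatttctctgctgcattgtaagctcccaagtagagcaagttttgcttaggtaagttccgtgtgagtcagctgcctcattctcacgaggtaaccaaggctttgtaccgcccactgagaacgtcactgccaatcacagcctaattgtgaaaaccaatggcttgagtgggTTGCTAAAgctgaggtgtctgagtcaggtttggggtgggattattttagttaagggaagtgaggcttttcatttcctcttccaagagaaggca
F13a1, chr13:37049164-37049463, minus strand: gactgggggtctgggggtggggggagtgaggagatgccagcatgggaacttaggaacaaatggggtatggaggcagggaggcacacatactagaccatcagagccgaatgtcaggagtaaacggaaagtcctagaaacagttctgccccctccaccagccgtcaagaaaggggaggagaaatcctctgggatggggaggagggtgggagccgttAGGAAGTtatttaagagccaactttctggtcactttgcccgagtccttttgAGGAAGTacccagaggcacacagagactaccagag
Fcgr1, chr3:96293920-96294219, minus strand: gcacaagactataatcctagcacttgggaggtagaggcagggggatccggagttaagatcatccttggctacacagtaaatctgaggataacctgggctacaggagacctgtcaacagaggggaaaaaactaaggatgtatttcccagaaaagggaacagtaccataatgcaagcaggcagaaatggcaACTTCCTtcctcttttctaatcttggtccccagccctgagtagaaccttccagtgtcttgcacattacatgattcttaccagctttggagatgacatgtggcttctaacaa

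F13a1 had 2 copies of AGGAAGT in the window shown and none in the window of its other listed start. Fcgr1 had 1 copy on the opposite strand, read here as ACTTCCT. Cd68 had the C/EBP-like letters TTGCTAAA, and Clec4a3 had no match in either of its windows. The windows of Ccr2, Cx3cr1 and Ccl9 had no match, and no window that was searched had the IRF-like motif. A match is a description of letters, and the absence of one says only that these letters are not in that window.

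Array medians lay between 5.44 and 5.85. On 10 arrays the 75th percentile was low (6.9 to 7.15, against 7.26 to 7.72 on the other 47), and these included all CA10 whole marrows, no NHD13 whole marrow and, in each lineage-negative group, the third array. The median correlation with the other arrays of the same tissue was under 0.91 for 3 arrays, the third NHD13 leukemic spleen (0.907), the third NHD13 lineage-negative marrow (0.815) and the third CA10 thymus (0.904). The Gapdh control difference of 3-prime minus 5-prime signal, a sign of RNA degradation, had medians of 0.03 in CA10 leukemic, 0.19 in NHD13 leukemic, 0.55 in CA10 healthy and 0.47 in wild-type spleens. It was highest on the third NHD13 lineage-negative array (2.95) and on the first CA10 healthy spleen (2.09). Markers of the labelled tissues were present, with T cell gene means of 8.80 to 11.69 in wild-type thymus, neutrophil gene means of 12.91 to 13.31 in wild-type whole marrow (C57B6 apart) and 5.92 to 7.46 in wild-type lineage-negative marrow, and B cell gene means of 10.81 and 11.18 in wild-type spleen. All 8 members were among the 15310 genes above the filter on dim signals.

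Across the 14 groups, 6 of the 8 members had their highest mean in CA10 leukemic spleen, and 7 of the 8 had their lowest mean in lineage-negative marrow. These were Cx3cr1 (8.11 in CA10 leukemic spleen), Fcgr1 (7.33), Clec4a3 (10.05), Cd68 (10.35), F13a1 (11.97) and Ccl9 (11.39). The exceptions at the top were Ccr2, highest in wild-type C57B6 whole marrow at 10.29, and Csf1r, highest in wild-type spleen at 12.43. At the bottom, Ccr2 had its lowest mean in NHD13 thymus at 6.66. The range of group means was 6.70 for F13a1, 6.06 for Clec4a3, 5.97 for Csf1r, 5.59 for Cd68, 4.78 for Ccl9, 3.63 for Ccr2, 2.54 for Cx3cr1 and 2.46 for Fcgr1.

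Most steps in these orders were small. Of the 13 pairs of neighbouring groups, between 10 and 13 per gene differed by less than the larger of the 2 SDs. The steps that exceeded it in Clec4a3 were CA10 leukemic spleen over C57B6 marrow (1.35), wild-type spleen over CA10 thymus (1.01) and thymus over lineage-negative marrow (2.09). Cd68 and Csf1r also stepped by 2.70 and 2.61 between the lowest thymus group and the highest lineage-negative group. The 3 lineage-negative groups were the 3 lowest for Clec4a3, Cd68, Csf1r, F13a1 and Fcgr1. Cx3cr1 and Ccl9 had means in thymus or wild-type spleen that lay among the lineage-negative ones. For Ccr2 the NHD13 thymus mean of 6.66 lay below every lineage-negative mean.

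**Figure D1:**
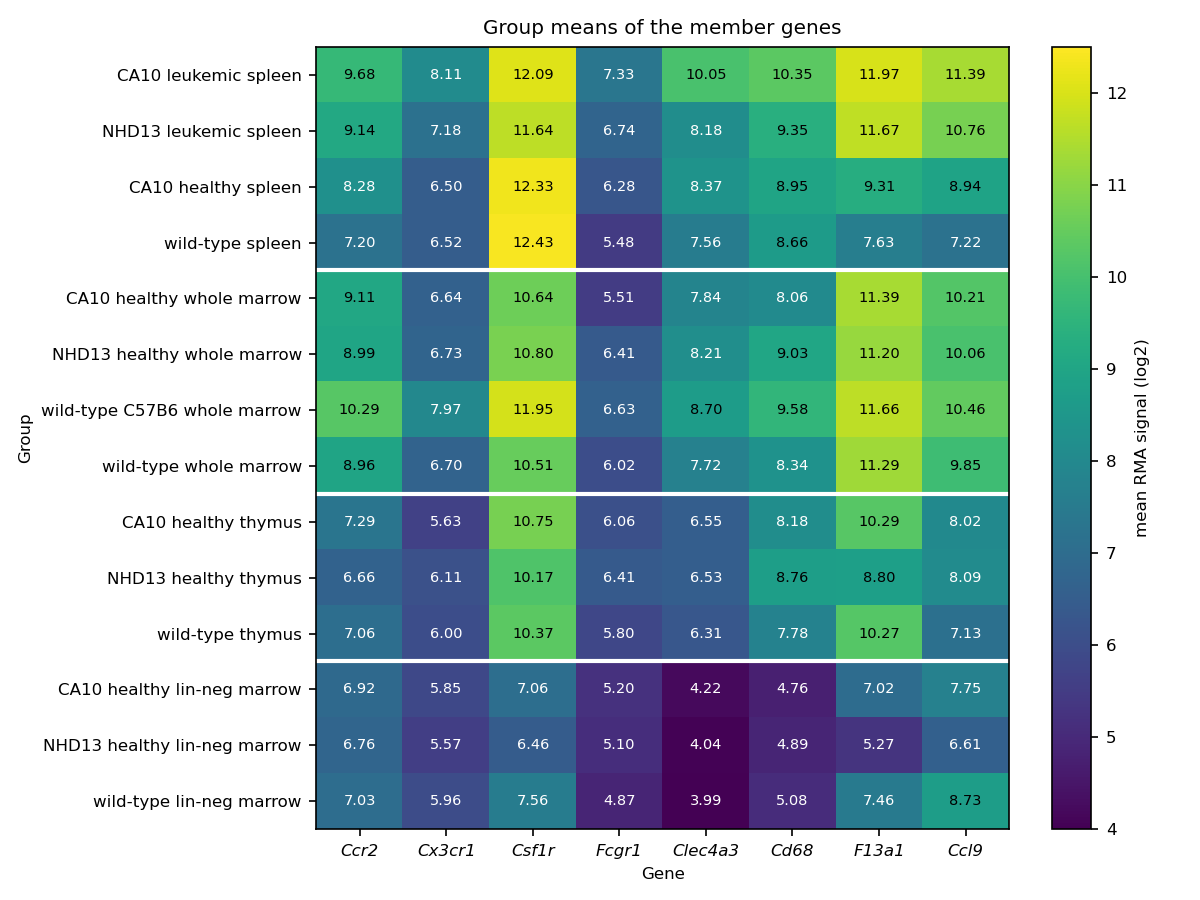
Mean log2 signal of the 8 member genes in the 14 groups, 1 cell per gene and group, with lighter, yellower cells for higher means. Read along a single gene, CA10 leukemic spleen holds the highest mean for 6 of the 8 genes and lineage-negative marrow the lowest for 7 of the 8; colours are not comparable between genes.

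The first comparison asks whether the leukemias of the 2 transgenes differ in these genes. In leukemic spleen all 8 members had a higher mean in CA10 than in NHD13, and 2 of the 8 passed the test, Clec4a3 and Cd68, where 11.7% of all genes were called higher. The members' median difference was 0.61, against -0.02 over all genes tested. In bulk tissue, more cells of a kind and more RNA per cell cannot be told apart.

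Clec4a3 separated the leukemias. Its lowest, median and highest signals were 9.16, 10.06 and 10.64 in CA10 leukemic spleens, against 5.94, 8.52 and 9.12 in NHD13 leukemic spleens. Every CA10 array lay above every NHD13 array. The difference was 1.88 ± 0.41 (SE) on the log2 scale, a 3.67-fold higher signal with a 95% interval of 1.01 to 2.74 log2 units, and the adjusted p in limma was 0.00361. The lowest NHD13 array was the third, which stood apart from its tissue, and without it the difference was 1.43 with an adjusted p of 0.000946.

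Among the other receptors, Cx3cr1 ran from 7.18 to 8.81 with a median of 8.21 in CA10 leukemic spleens, against 5.53 to 8.24 with a median of 7.33 in NHD13 leukemic spleens. The groups overlapped, and the difference of 0.93 ± 0.39 had an adjusted p of 0.0923. Fcgr1 ran from 6.82 to 8.10 (median 7.24) in CA10 and from 6.07 to 7.07 (median 6.86) in NHD13, a difference of 0.59 ± 0.30 (adjusted p = 0.162). Both receptors were thus higher on average in CA10 without passing the test. Ccr2 ran from 8.53 to 10.51 (median 9.85) in CA10 and from 7.08 to 10.46 (median 9.35) in NHD13, and the difference was 0.54 ± 0.50 (adjusted p = 0.455). Csf1r was tightly held in CA10, from 11.86 to 12.25 (median 12.10), and spread more widely in NHD13, from 9.84 to 12.48 (median 11.95). Its mean difference of 0.44 ± 0.34 had an adjusted p of 0.352, and CA10 arrays lay inside the NHD13 range.

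Cd68, the lysosomal marker, ran from 9.93 to 10.67 (median 10.39) in CA10 leukemic spleens, against 7.93 to 10.68 (median 9.38) in NHD13 leukemic spleens. The groups overlapped, with NHD13 arrays at 10.68, 9.94 and 9.93 reaching the CA10 range. The difference of 0.99 ± 0.35 passed narrowly, with an adjusted p of 0.0469. Without the third NHD13 array it was 0.71 with an adjusted p of 0.0952, and it passed in 4 of the 12 fits that each left out 1 array.

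The secreted effectors did not separate the leukemias. F13a1 ran from 11.10 to 13.03 (median 11.92) in CA10 and from 9.37 to 12.75 (median 12.19) in NHD13, with a difference of 0.30 ± 0.77 (adjusted p = 0.808). Ccl9 ran from 10.23 to 12.74 (median 11.32) in CA10 and from 8.68 to 11.97 (median 11.09) in NHD13, with a difference of 0.63 ± 0.70 (adjusted p = 0.534). The intervals reached from -1.33 to 1.92 for F13a1 and from -0.84 to 2.11 for Ccl9, so a change of either sign is inside them. Without the third NHD13 spleen the F13a1 difference was -0.17.

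The third NHD13 leukemic spleen was the lowest of its group in 8 of the 8 members. Its mean over the neutrophil markers was 8.42, against 11.57 to 13.09 on the other NHD13 leukemic arrays, and over the primary granule genes it was 8.43, against 11.48 to 12.80. The part of its tissue makeup in the members' values was not tested. Leaving it out, the 8 differences between the leukemias ran from -0.17 for F13a1 to 1.43 for Clec4a3.

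**Figure D2:**
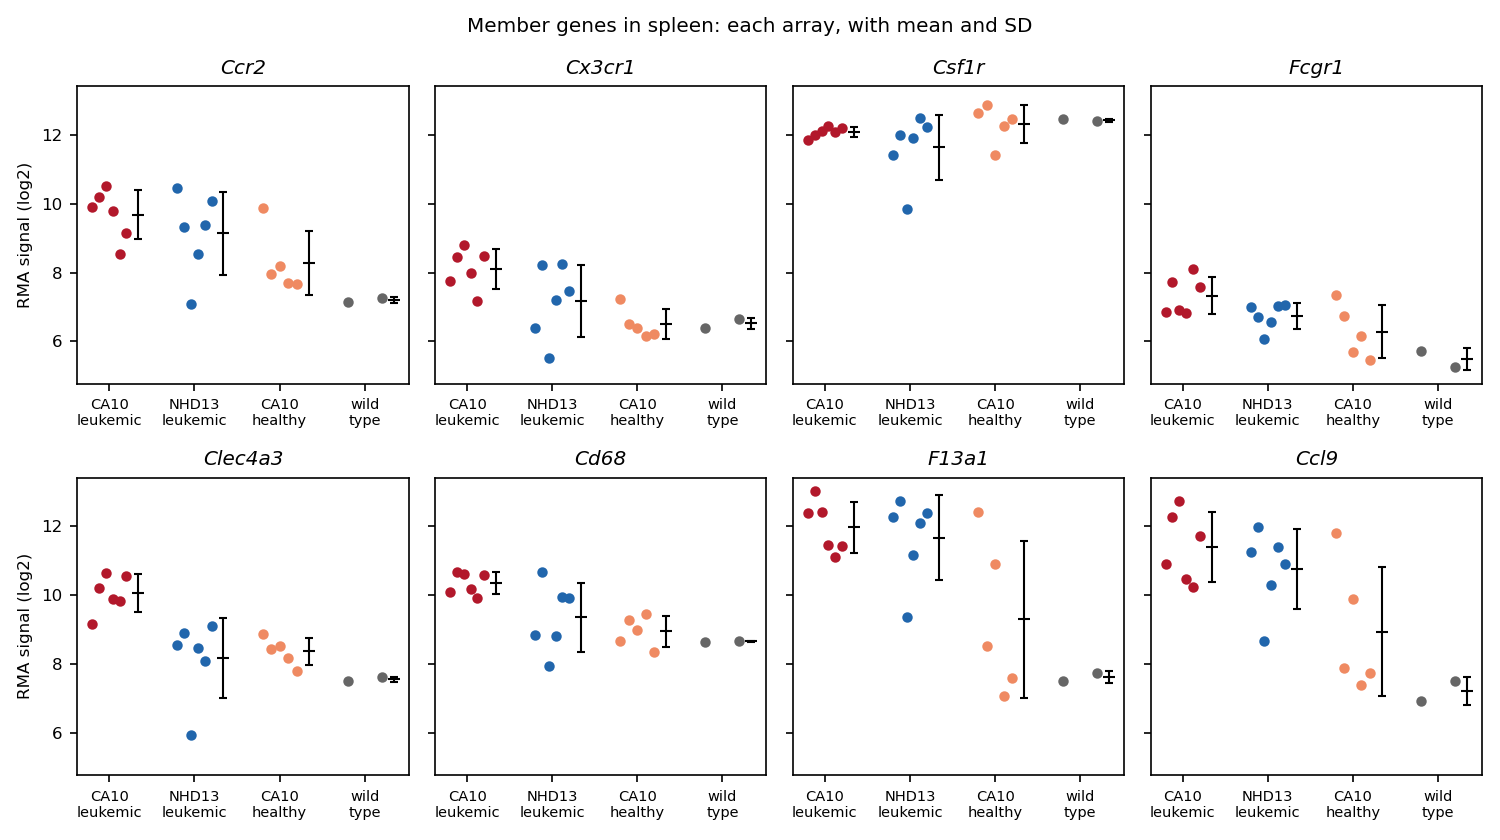
Log2 signal of each member gene in the 4 spleen groups, CA10 leukemic, NHD13 leukemic, CA10 healthy and wild type; dots are arrays and black bars are the mean and SD. Clec4a3 has every CA10 leukemic array above every NHD13 leukemic array, while F13a1 and Ccl9 are high in both leukemias and split among the CA10 healthy spleens.

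For Ccr2, Cx3cr1 and Csf1r another probe set of the gene showed a larger difference than the one that stands for it. Over the 16 probe sets, 5 were called higher in CA10 leukemic spleen, where 12.6% of all probe sets were, and none was called lower. Ccr2 on 1421187_at had a lowest, median and highest signal of 7.94, 10.62 and 11.44 in CA10, against 4.88, 7.00 and 8.26 in NHD13. Only the lowest CA10 array fell within the NHD13 range, and the difference was 3.55 ± 0.60 (adjusted p = 0.000411), compared with 0.54 on 1421186_at and -0.18 on 1460067_at. Cx3cr1 on 1450019_at ran from 5.40 to 6.83 (median 6.19) in CA10 and from 4.35 to 5.09 (median 4.54) in NHD13. These groups did not overlap, and the difference was 1.58 ± 0.21 (adjusted p = 4.2e-05). All NHD13 signals on it were below the lowest array median of 5.44, and the probe set exceeded the 40th percentile on 12 of the 57 arrays. The NHD13 level is therefore not well measured there, and the size of the difference is uncertain. Csf1r on 1423593_a_at ran from 10.10 to 11.08 (median 10.85) in CA10 and from 8.11 to 10.12 (median 9.73) in NHD13, a difference of 1.20 ± 0.31 (adjusted p = 0.00911).

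These probe sets of Ccr2, Cx3cr1 and Csf1r were called in each of the 12 fits that left out 1 array, with differences of 3.19 to 4.01, 1.45 to 1.73 and 0.93 to 1.33. For these 3 genes the call therefore depended on the probe set, and for Cx3cr1 the called one was dim in NHD13. On Fcgr1 the second probe set, 1436625_at, differed by -0.05 ± 0.19, against 0.59 on the first, and the second of Ccl9, 1448898_at, differed by 0.84. Which probes of a gene measure which transcript is not given in the files, and its part in these disagreements was not tested.

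**Figure D3:**
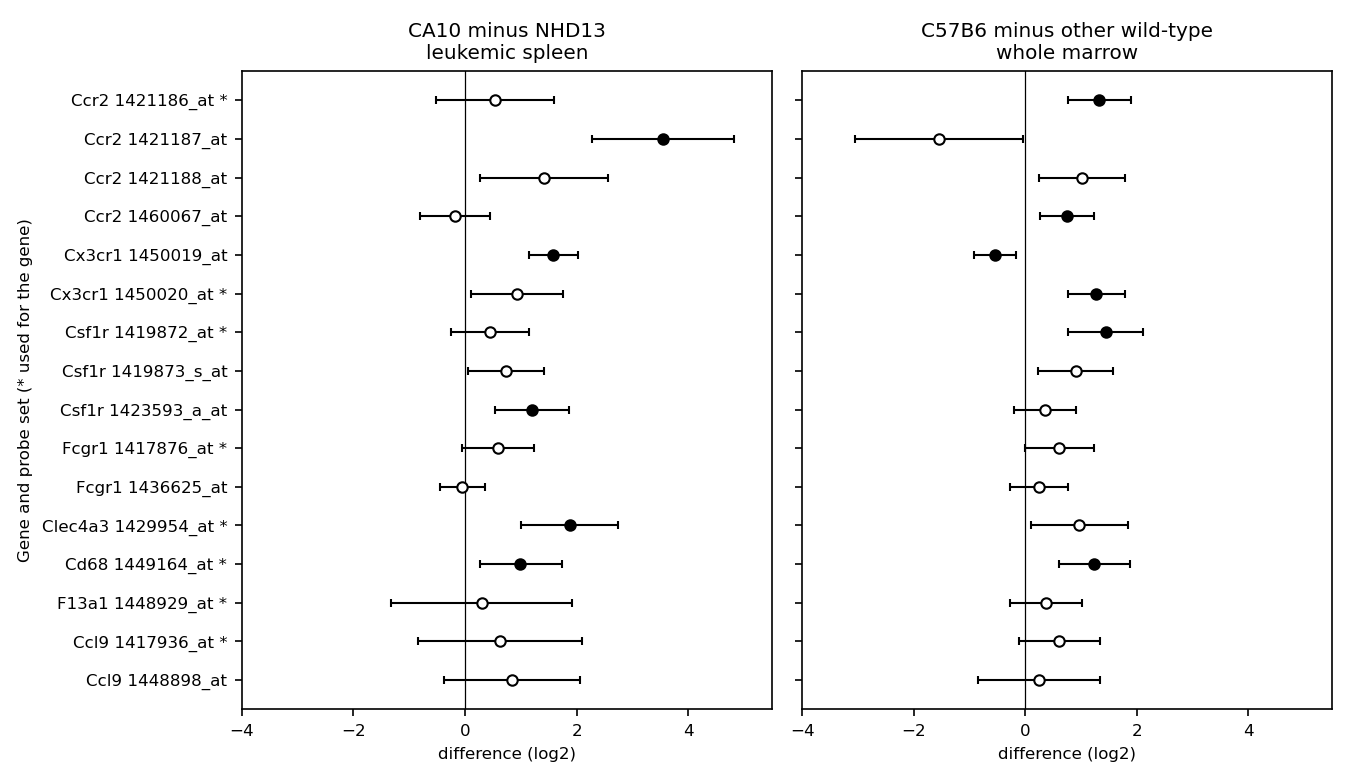
Difference in log2 signal on each of the 16 member probe sets, CA10 minus NHD13 leukemic spleen on the left and wild-type C57B6 minus other wild-type whole marrow on the right, with 95% intervals; filled points have an adjusted p under 0.05. Ccr2 on 1421187_at and Cx3cr1 on 1450019_at are high on the left and below 0 on the right.

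Set against wild-type spleen, F13a1 and Ccl9 were called higher in both leukemias, and so were Ccr2 and Fcgr1 on the probe sets that stand for them. Clec4a3 and Cd68 were called higher in CA10. Both comparisons use the same 2 wild-type spleens, so their values are given side by side. In CA10 leukemic spleen 6 of the 8 members were called higher than in wild-type spleen, where 5.63% of all genes were. In NHD13 leukemic spleen 4 of the 8 were called higher than in wild-type spleen, where 19.1% of all genes were. No member was called lower in either, although with the difference between C57B6 and other wild-type marrow subtracted Csf1r was called lower in NHD13 (-2.23, adjusted p = 0.016). Under that setting F13a1 was the only member still called higher in NHD13 (3.68, adjusted p = 0.0188). The median member difference was 2.17 in CA10 and 0.98 in NHD13, against 0.03 and 0.04 over all genes.

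F13a1 was at least 11.10 in CA10 leukemic spleens and at least 9.37 in NHD13 leukemic spleens, against 7.50 and 7.75 in the wild-type spleens, and no leukemic array overlapped them. Its difference from wild type was 4.34 ± 1.09 in CA10 (adjusted p = 0.0241) and 4.05 ± 1.09 in NHD13 (adjusted p = 0.00932). Ccl9 was at least 10.23 in CA10 and 8.68 in NHD13, against 6.94 and 7.51 in wild type, and its differences were 4.17 ± 0.99 in CA10 (adjusted p = 0.0197) and 3.54 ± 0.99 in NHD13 (adjusted p = 0.0119). Both effectors were therefore above wild type on every leukemic array. Ccr2, from 8.53 in CA10 and from 7.08 in NHD13, against 7.14 and 7.26 in wild type, was higher by 2.48 ± 0.71 in CA10 (adjusted p = 0.0413) and by 1.94 ± 0.71 in NHD13 (adjusted p = 0.046). Fcgr1, from 6.82 in CA10 and from 6.07 in NHD13, against 5.71 and 5.26 in wild type, was higher by 1.85 ± 0.43 in CA10 (adjusted p = 0.0182) and by 1.26 ± 0.43 in NHD13 (adjusted p = 0.0332). The lowest NHD13 array reached the wild-type range in Ccr2 and not in Fcgr1. The NHD13 call of Ccr2 was lost with no filter on dim genes (adjusted p = 0.0522), with quantile normalization (0.0746), with only the groups compared (0.101) and with the mean of its probe sets (0.234). The second Fcgr1 probe set, 1436625_at, averaged 5.80 in CA10 and 5.85 in NHD13 leukemic spleens, against 5.80 in wild type, and with the mean of both probe sets Fcgr1 was called in neither leukemia (adjusted p = 0.0687 in CA10 and 0.109 in NHD13).

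Clec4a3 ran from 9.16 to 10.64 in CA10 leukemic and from 5.94 to 9.12 in NHD13 leukemic spleens, against 7.50 and 7.61 in wild-type spleens. It was higher by 2.50 ± 0.58 in CA10 leukemic spleen (adjusted p = 0.0185), whereas its difference in NHD13 leukemic spleen was 0.62. Cd68, from 9.93 in CA10 and from 7.93 in NHD13, against 8.65 and 8.67 in wild type, was higher by 1.69 ± 0.50 in CA10 (adjusted p = 0.045), and its NHD13 difference was 0.69. The CA10 call of Cd68 was lost with no filter (adjusted p = 0.0514), with quantile normalization (0.0755) and with the Gapdh covariate (0.0558). Without the third NHD13 spleen the Clec4a3 difference of NHD13 from wild type was 1.07 with an adjusted p of 0.0277. Cx3cr1 had differences of 1.59 in CA10 (adjusted p = 0.0852) and 0.66 in NHD13. Csf1r was not higher in either leukemia, with -0.34 in CA10 and -0.79 in NHD13, neither of which passed. The calls in both comparisons rest on the 2 wild-type spleens together, since leaving out either leaves 1 array, where only differences are given. Without the first or the second wild-type spleen, F13a1 differed by 4.22 or 4.47 in CA10 and by 3.92 or 4.17 in NHD13. Fcgr1 differed by 2.07 or 1.62 in CA10 and by 1.48 or 1.03 in NHD13. Leaving out the first or the sixth NHD13 leukemic spleen left 2 members called in NHD13, where 4795 and 4542 of all genes were called in either direction.

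By probe set, 10 of the 16 were called higher in CA10 leukemic than in wild-type spleen, where 4.71% of all probe sets were, and 5 of the 16 in NHD13 leukemic than in wild-type spleen, where 18.6% were. Ccr2 on 1421187_at differed from wild type by 0.57 in NHD13 (adjusted p = 0.643), while 1421186_at was called there.

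CA10 spleen could also be compared before and after leukemia. Relative to the CA10 spleens without signs, 3 of the 8 members were called higher in CA10 leukemic spleen, where 4.18% of all genes were: Cx3cr1, Clec4a3 and Cd68. Clec4a3 was at least 9.16 in the leukemic spleens, against 8.88, 8.44, 8.52, 8.19 and 7.80 in the healthy ones, with no overlap, and differed by 1.69 ± 0.43 (adjusted p = 0.0314). Cd68 was at least 9.93 in the leukemic spleens, against 8.67, 9.29, 8.98, 9.45 and 8.36 in the healthy ones, again with no overlap, and differed by 1.40 ± 0.37 (adjusted p = 0.0352). Cx3cr1 was at least 7.18 in the leukemic spleens, against 7.24, 6.51, 6.40, 6.16 and 6.22 in the healthy ones, with 1 healthy array above the lowest leukemic one, and differed by 1.60 ± 0.41 (adjusted p = 0.0328). By probe set, 6 of the 16 were called higher, where 4.55% of all probe sets were, and these included Ccr2 on 1421187_at (3.39, adjusted p = 0.00814) and Ccl9 on 1448898_at (3.47, adjusted p = 0.00583).

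The effectors were uneven among the CA10 spleens without signs. F13a1 had 12.43 and 10.90 on the first and the third of these arrays, against 8.52, 7.08 and 7.59 on the others. Ccl9 had 11.80 and 9.90 on the same pair of arrays, against 7.89, 7.40 and 7.73. The primary granule genes moved with them, with list means of 12.24 and 12.04 on that pair, against 8.92, 6.80 and 6.56, and their part in these values was not tested. The leukemic minus healthy differences were 2.66 for F13a1 (adjusted p = 0.0596) and 2.45 for Ccl9 (adjusted p = 0.0573), and neither passed. Fcgr1 differed by 1.05 (adjusted p = 0.0589), Ccr2 by 1.40 (adjusted p = 0.124) and Csf1r by -0.24.

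With the Gapdh difference, whose median was 0.03 in the leukemic and 0.55 in the healthy CA10 spleens, as a covariate, Clec4a3 (1.79, adjusted p = 0.0535) and Cd68 (1.24, adjusted p = 0.1) were no longer called. F13a1 (4.03, adjusted p = 0.00942), Ccl9 (3.66, adjusted p = 0.0102) and Fcgr1 (1.49, adjusted p = 0.0172) were called in their place, beside Cx3cr1 (1.94, adjusted p = 0.0287). With every array, 920 of all 15310 genes were called in either direction. Leaving out the first healthy array, which had a raised Gapdh difference, brought the members called to 7 of the 8 and all genes to 1413. Leaving out the second or the fourth healthy array brought the members to 1, with 588 and 503 of all genes. Without the fifth healthy array 0 members and 127 genes were called. Without the second, the third or the sixth leukemic array 0 members were called, with 510, 274 and 378 genes. Between CA10 healthy and wild-type spleen 0 members and 0.0% of all genes were called in limma, and at an unadjusted p under 0.05 there were 387 genes and 0 members.

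Few of these genes were called in pre-leukemic tissue, and an absent call there is not an absent difference. In simulated data, a log2 change of 1 between CA10 and NHD13 was recovered in 2% of changed genes in lineage-negative marrow and 26% in thymus. The recovery was 43% in whole marrow, where it need not apply to the data. In lineage-negative marrow, 0 of the 8 members and 0.0% of all genes were called between CA10 and NHD13, with 321 genes and 2 members at an unadjusted p under 0.05. CA10 against wild type gave 0 members and 0.0% of genes, with 71 genes and 1 member at an unadjusted p under 0.05. NHD13 against wild type gave 0 members, where 0.0588% of genes were called, with 506 genes and 3 members at an unadjusted p under 0.05.

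The members with unadjusted p under 0.05 in lineage-negative marrow included the secreted effectors. F13a1 had 4.48, 4.39 and 6.94 in NHD13 lineage-negative marrow, against 7.66, 7.51 and 7.22 in wild type. The groups did not overlap, and the difference was -2.19 ± 0.62 (adjusted p = 0.693). CA10 lineage-negative marrow had 7.06, 7.58 and 6.40, overlapping NHD13, with CA10 above NHD13 by 1.74 ± 0.62 (adjusted p = 0.964). Ccl9 had 6.05, 6.28 and 7.50 in NHD13, against 9.41, 8.17 and 8.62 in wild type, a difference of -2.12 ± 0.44 (adjusted p = 0.293) with no overlap.

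In both genes the third NHD13 array, which had the high Gapdh difference and stood apart, was the highest of its group. Without the arrays that stood apart, an alternative chosen after seeing the data, F13a1 differed by -3.02 (adjusted p = 0.0066) and Ccl9 by -2.57 (adjusted p = 0.0172) between NHD13 and wild type. F13a1 then also differed by 2.58 between CA10 and NHD13 (adjusted p = 0.0361). The primary granule genes had list means of 6.36, 6.66 and 7.18 in NHD13 lineage-negative marrow, against 10.21, 8.84 and 9.37 in wild type, and their part in the F13a1 and Ccl9 values was not tested.

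In whole marrow 1 of the 8 members, Cd68, was called lower in CA10 than in NHD13, where 14.8% of all genes were, and none was called higher. Cd68 had 8.43, 7.63 and 8.12 in CA10 whole marrow, against 8.48, 9.23 and 9.39 in NHD13 whole marrow. The groups did not overlap, with 8.43 and 8.48 as the nearest arrays, and the difference was -0.97 ± 0.34 (adjusted p = 0.0426). This was the opposite sign to leukemic spleen. The CA10 whole marrows were all in the array set with a low 75th percentile and the NHD13 ones were not, and with that set as a block the Cd68 difference was -0.34 (adjusted p = 0.786). It was not called in any of the 6 fits that each left out 1 of these arrays, with differences of -0.76 to -1.25.

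Fcgr1 had 5.28, 5.45 and 5.81 in CA10 whole marrow, against 6.88, 6.40 and 5.95 in NHD13 whole marrow. CA10 lay below NHD13 on every array, with a difference of -0.90 ± 0.33 (adjusted p = 0.0516), and of the same 6 fits it was called only in that without the third NHD13 array (-1.12, adjusted p = 0.045). The second Fcgr1 probe set, 1436625_at, went the other way, by 1.03 (adjusted p = 0.0238). Over the 16 probe sets 3 were called in either direction, where 28.3% of all probe sets were, and the third was Ccr2 on 1460067_at, at 1.01 (adjusted p = 0.0216).

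Against other wild-type whole marrow, 0 members were called in CA10, where 0.0% of genes were, with 2345 genes and 0 members at an unadjusted p under 0.05. In NHD13 against wild-type whole marrow 0 members were called, where 1.18% of genes were, with 2540 genes and 1 member at an unadjusted p under 0.05. The members' differences ran from -0.50 to 0.37 in CA10 and from -0.10 to 0.69 in NHD13. Against C57B6 marrow, 5 members were called lower in CA10, namely Ccr2 (-1.18), Cd68 (-1.52), Csf1r (-1.31), Cx3cr1 (-1.33) and Fcgr1 (-1.12). In NHD13 against C57B6 marrow 3 were called lower, namely Ccr2 (-1.29), Csf1r (-1.15) and Cx3cr1 (-1.25). The share of all genes called against C57B6 marrow is not given here. All CA10 whole marrows and no C57B6 marrow were in the array set with a low 75th percentile. The part of that set therefore cannot be told apart from the CA10 differences against C57B6 marrow.

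In thymus 0 of the 8 members were called between CA10 and NHD13, where 0.216% of all genes were, with 1523 genes and 2 members at an unadjusted p under 0.05. F13a1 had 10.49, 10.11, 10.63 and 9.95 in CA10 thymus, against 9.77, 9.32 and 7.32 in NHD13 thymus. The groups did not overlap, and the difference was 1.49 ± 0.44 (adjusted p = 0.271). Wild-type thymus ran from 9.80 to 10.64 with a median of 10.35, also above every NHD13 array, and NHD13 differed from it by -1.47 ± 0.40 (adjusted p = 0.113). Ccr2 had 7.58, 7.18, 7.13 and 7.28 in CA10 thymus, against 6.93, 6.93 and 6.12 in NHD13 thymus, with no overlap and a difference of 0.63 ± 0.23 (adjusted p = 0.395).

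Against wild-type thymus, 0 members were called in CA10, where 0.0% of genes were, with 520 genes and 0 members at an unadjusted p under 0.05. In NHD13 against wild-type thymus 0 members were called, where 0.764% of genes were, with 1774 genes and 2 members at an unadjusted p under 0.05. The second wild-type thymus was the highest of its group in 7 of the 8 members, and its B cell list mean was 9.19, against 6.30 to 7.19 on the other wild-type thymuses.

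Whether the CA10 minus NHD13 difference was the same in leukemic spleen, lineage-negative marrow, whole marrow and thymus was tested directly. Of the 8 members 1 passed, Clec4a3, where 10.9% of all genes did, and 1 in 8 is near that share. The Clec4a3 difference was 1.88 in leukemic spleen, against 0.18 in lineage-negative marrow, -0.37 in whole marrow and 0.02 in thymus. The moderated F was 6.07 on 3 degrees of freedom (adjusted p = 0.0248). In lineage-negative marrow the Clec4a3 means, 4.22 in CA10 and 4.04 in NHD13, were below the lowest array median of 5.44. A difference would be hard to see there. Without the second CA10 whole marrow 0 members passed. Cd68 had an adjusted p of 0.0528, Fcgr1 of 0.0644 and Cx3cr1 of 0.136, and those of the other members were 0.429 or more. Leukemic spleen also differs from the other tissues in clinical state, and tissue and state cannot be told apart in this test.

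**Figure D4:**
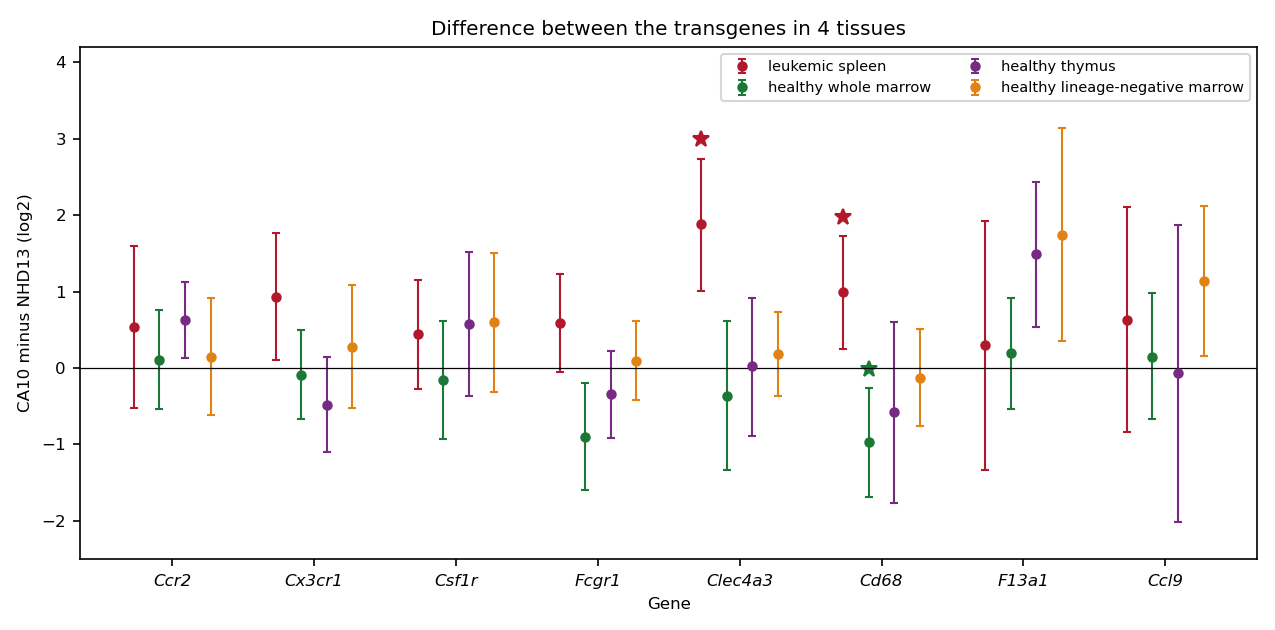
CA10 minus NHD13 difference in log2 signal of the 8 member genes in leukemic spleen and in pre-leukemic lineage-negative marrow, whole marrow and thymus, with 95% intervals; stars mark an adjusted p under 0.05. In leukemic spleen all 8 points lie above 0, with stars at Clec4a3 and Cd68, and in whole marrow Cd68 is the only star and lies below 0, a call lost when any 1 of the 6 arrays was left out.

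The wild-type marrows labelled C57B6 differed from the other wild-type marrows in several members. Of the 8, 4 were called higher in C57B6, where 14% of all genes were, and none was called lower. Ccr2 had 10.43, 10.22 and 10.22 in C57B6 marrow, against a lowest, median and highest of 8.63, 8.85 and 9.70 in the other wild-type marrows, a difference of 1.33 ± 0.27 (adjusted p = 0.00284). Cx3cr1 had 8.09, 7.64 and 8.18 in C57B6, against 6.09, 6.73 and 7.38, a difference of 1.27 ± 0.24 (adjusted p = 0.00203). Both chemokine receptors were higher on every C57B6 array. Csf1r had 11.67, 12.46 and 11.71 in C57B6, against 9.95, 10.50 and 11.15, a difference of 1.44 ± 0.32 (adjusted p = 0.00515). Cd68 had 9.55, 9.72 and 9.46 in C57B6, against 7.65, 8.34 and 8.98, a difference of 1.24 ± 0.29 (adjusted p = 0.00851).

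Csf1r and Cd68 were likewise higher on every C57B6 array. The other wild-type marrows numbered 4, 5 and 6 had a low 75th percentile (7.145, 7.116 and 7.149). The C57B6 marrows did not (7.593, 7.423 and 7.574). The C57B6 label and the array set therefore cannot be fully told apart in this comparison. By probe set 6 of the 16 were called in either direction, where 19.6% of all probe sets were, and Cx3cr1 on 1450019_at went the other way from 1450020_at, at -0.54 (adjusted p = 0.0382), with dim signals in both groups (at most 4.46 in C57B6 and 5.19 in the others). An alternative took the C57B6 difference of whole marrow from the NHD13 spleens, as if NHD13 mice alone were C57B6. CA10 then exceeded NHD13 leukemic spleen by 2.01 in Ccr2 on 1421187_at (adjusted p = 0.203). The difference was 1.04 in Cx3cr1 on 1450019_at (adjusted p = 0.0176) and 1.56 in Csf1r on 1423593_a_at (adjusted p = 0.0554). The probe sets that stand for these genes were newly called under that alternative. Their differences were 1.87 for Ccr2 (adjusted p = 0.0355), 2.2 for Cx3cr1 (adjusted p = 0.00219) and 1.88 for Csf1r (adjusted p = 0.0202). The strain of the transgenic mice is not in the labels, so strain and transgene cannot be told apart in these genes.

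Other monocyte genes were counted on lists drawn from general knowledge but chosen with earlier results of these data known. The counts are therefore a description and not independent support. In CA10 against NHD13 leukemic spleen, 5 of 11 genes of monocyte development were called higher and 0 lower, where 11.7% of all genes were called higher, with a median of 0.30 against -0.02 over all genes. They included Irf8, a regulator of monocyte and dendritic cell fate (2.01 ± 0.47, adjusted p = 0.00546), Csf2ra, the GM-CSF receptor alpha chain (1.86 ± 0.43, adjusted p = 0.00496), and Spi1, which encodes PU.1 (1.27 ± 0.29, adjusted p = 0.00501). Of 10 classical monocyte genes 1 was called higher, Ms4a6b (2.29 ± 0.54, adjusted p = 0.00559), with a list median of 0.60. Of 9 non-classical monocyte genes 1 was called higher, Ace (0.77 ± 0.25, adjusted p = 0.0318), with a list median of 0.37. None of these lists had a gene called lower there, and the counts of 1 in 10 and 1 in 9 are near the share of all genes.

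Of 5 relatives of Clec4a3 in the Clec4 family, 1 was called higher in CA10 than in NHD13 leukemic spleen, Clec4b1 (2.21 ± 0.56, adjusted p = 0.00874), with a median of 0.28. The lectins Clec4d and Clec4e were above wild type in both leukemias, Clec4d by 2.21 in CA10 (adjusted p = 0.0368) and 3.30 in NHD13 (adjusted p = 0.000888) and Clec4e by 3.70 in CA10 (adjusted p = 0.0185) and 4.43 in NHD13 (adjusted p = 0.00117). The 5 other Fc receptor genes had 0 called between the leukemias and a median of -0.02. Of 11 chemokine genes and receptors 1 was called higher, Ccl2, a ligand of Ccr2 (0.42 ± 0.15, adjusted p = 0.0426), and of 11 phagosome and lysosome genes 2 were, the cathepsins Ctsb (0.94 ± 0.20, adjusted p = 0.00328) and Ctss (1.21 ± 0.29, adjusted p = 0.00648). None of these counts stands far from the 11.7% of all genes called higher.

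Against wild-type spleen, the same lists counted the related genes in each leukemia, where 5.63% of all genes were called higher in CA10 and 19.1% in NHD13. Of the 5 Fc receptor genes, 1 was called higher in CA10 and 3 in NHD13, with Fcgr3 at 1.99 in CA10 and 2.00 in NHD13. Of the 5 Clec4 genes 3 were called higher in CA10 and 3 in NHD13. Of the chemokine genes 2 were called higher in each, the chemokine Ccl6 (2.84 in CA10, 2.03 in NHD13) and its receptor family member Ccr1 (3.36 in CA10, 3.20 in NHD13). The counts in NHD13 of 2 of 11 chemokine genes and of 2 of 11 monocyte development genes are near its share of all genes.

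Of the 11 monocyte development genes, 2 were called higher and 0 lower in CA10, Csf2ra (2.12 ± 0.61, adjusted p = 0.0407) and Spi1 (1.41 ± 0.42, adjusted p = 0.0446). In NHD13 2 were called higher and 1 lower. These were the shared receptor chain Csf2rb (2.02 ± 0.43, adjusted p = 0.00218) and the factor Cebpb (2.46 ± 0.63, adjusted p = 0.00706), and Csf1, the ligand of Csf1r, at -1.50 ± 0.47 (adjusted p = 0.0223). Of the 10 classical monocyte genes 0 were called in CA10, and in NHD13 Vcan (3.06) and Chil3 (3.18) were called higher and Ms4a6b lower (-2.12 ± 0.76, adjusted p = 0.0415). Of the 11 phagosome and lysosome genes Lgals3 (2.15) was called higher in CA10. In NHD13 Lamp2 (1.03) was called higher, and the cathepsins Ctsb (-1.15 ± 0.29, adjusted p = 0.00595) and Ctss (-1.10 ± 0.41, adjusted p = 0.0485) were called lower.

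Markers of other cell types also differed between the leukemic spleens. Of 7 dendritic cell genes 6 were called higher in CA10 than in NHD13, against 11.7% of all genes, and the list mean on single arrays ran from 7.39 to 8.68 in CA10, against 5.40 to 6.69 in NHD13. Its leading genes were Cd209a (4.12 ± 0.63) and Itgax (3.28 ± 0.47). Of 7 B cell genes 5 were called higher, and their list mean ran from 5.91 to 9.22 in CA10, against 5.10 to 6.30 in NHD13. Of 10 red pulp macrophage genes 3 were called higher, including Hmox1 (2.19 ± 0.47), with list means from 8.24 to 10.34 in CA10 and from 8.56 to 9.48 in NHD13. Of 7 T cell genes 5 and of 5 NK cell genes 2 were called higher in CA10. Of 8 neutrophil, 5 primary granule and 4 erythroid genes 0 were called, and of 6 stem and progenitor genes 1 was called higher and 1 lower. The part of these cell types in the Clec4a3 and Cd68 differences was not tested.

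Against wild-type spleen, B cell genes were called lower in 4 of 7 in CA10 and in 7 of 7 in NHD13, with medians of -3.35 and -5.14, where 2.42% of all genes were called lower in CA10 and 12.3% in NHD13. The primary granule genes were called higher in 1 of 5 in CA10 and in 4 of 5 in NHD13, with medians of 4.18 and 4.44. The red pulp macrophage list, which holds resident macrophages of normal spleen, had medians of -0.01 in CA10 and -0.68 in NHD13. Csf1r, which those cells also carry, lay below wild type in both leukemias on 1419872_at without passing, while on 1423593_a_at it averaged 10.68 in CA10 and 9.48 in NHD13 leukemic spleens, against 10.48 in wild type.

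Over the 14 group means, the members correlated with one another at 0.51 to 0.96, with a median of 0.78 over 28 pairs. These points share arrays and tissue makeup, and no test is attached to them. The closest pair was Clec4a3 and Cd68 (0.96), and the least alike were Csf1r and Ccl9 (0.51). Among 11506 other genes, those whose group means most resembled Clec4a3 were Pld4, S100a4 and Fgl2 (0.99 each). For Csf1r they were Myo1g and Smim14 (0.99) and Cggbp1 (0.98), and for Cd68 they were Grk5, Mospd2 and Diaph2 (0.98 each). For Ccr2 they were Apobr, Hk3 and Cd300lb (0.97 each), and for Cx3cr1 they were Padi2 (0.97), Nek6 (0.95) and Efhd2 (0.94). Fcgr1 was most like Rbpj (0.95), Stard3nl and Vamp3 (0.94 each), F13a1 most like Xpc and Stk26 (0.95) and Emb (0.94), and Ccl9 most like Cited2 and Tmed3 (0.95) and Tifab (0.94).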

How the data were processed

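RNA of mouse spleen, thymus, whole marrow and lineage-negative marrow was extracted with Trizol, and 100 ng was labelled with biotin for Affymetrix mouse arrays, per the labels' protocols. The authors deposited log2 signals made with RMA, per the submitters' processing notes, and its version is not given in the sources used here. RMA normalizes all arrays to one distribution of signals, so a shift of most genes in a tissue would not be seen. The labels' genotype, tissue and clinical state gave 14 groups of the 57 arrays. Table columns left unused numbered 0, and no pair of arrays correlated above 0.996.

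The platform annotation gave 1 gene for 34842 of the 44943 probe sets, several genes for 931 and no gene for 9106, and 64 were controls. A gene was read from the probe set whose mean over the arrays was highest, and genes above the 40th percentile of their array on at least 3 arrays were tested. For each tissue 1 model of group means was fitted with limma 3.58.1 in R 4.3.3 (lmFit, contrasts.fit and eBayes), with Benjamini-Hochberg adjustment over the 15310 genes tested and a threshold of 0.05. The same models were fitted on the 28025 probe sets above the filter. Tissues were compared by the moderated F test of limma in a model of the 57 arrays. Errors beside differences are standard errors, and intervals are at 95%.

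The 8 members were named on every probe set. Up to 3 genes of a list with the smallest adjusted p in a comparison were named, and for each member the 3 genes with the most similar group means. The members and the gene lists were chosen with earlier results of these data known. Among comparisons with 3 or more pairs, same-numbered arrays correlated above 0.1 in every pair in the lineage-negative ones only (0.22 to 0.76 for CA10 against NHD13, 0.20 to 0.70 for CA10 against wild type and 0.21 to 0.74 for NHD13 against wild type), and the labels do not say what a number marks. The models were tested on simulated data of 15310 genes with independent noise, 100 of them changed by 1 log2 unit and 100 by 2. In the data many more genes were called in leukemic spleen (3782) and whole marrow (4451), where these recoveries need not apply. For CA10 against NHD13 a log2 change of 1 was recovered in 64% of changed genes in leukemic spleen, 2% in lineage-negative marrow, 43% in whole marrow and 26% in thymus, and a change of 2 in 95%, 49%, 92% and 82%. The alternatives were other filters, all or the mean of a gene's probe sets, quantile normalization, eBayes with trend and robust settings, fewer or all arrays in the model, a replicate block, the array set as a block, a Gapdh covariate, other control marrows, the C57B6 difference subtracted and single arrays left out. The C57B6 difference of whole marrow was taken from the NHD13 values in every tissue, as if NHD13 mice alone were C57B6, which the labels do not say. The alternative without the arrays that stood apart, and all alternatives of the C57B6, tissue and probe set comparisons, were chosen after seeing the data.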

Additional observations from a re-analysis of the deposited data

Results flagged for a closer look

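Of the 48 sets of 4 to 10 arrays that were examined, 1 gene in 1 group each, 4 held an array far from the rest by Dixon's 95% criterion, where chance alone marks about 1 in 20.

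Ccr2 on the first CA10 healthy spleen was 9.89, against 7.66 to 8.19 on the other CA10 healthy spleens. This array also had a Gapdh 3-prime minus 5-prime difference of 2.09 and a primary granule list mean of 12.24.

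Clec4a3 on the third NHD13 leukemic spleen was 5.94, against 8.08 to 9.12 on the others. The array was the lowest of its group in 8 of the 8 members.

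Csf1r on the second wild-type thymus was 11.75, against 9.79 to 10.57 on the other wild-type thymuses, and Ccl9 on the same array was 9.65, against 6.02 to 7.23. Its B cell list mean was 9.19, against 6.30 to 7.19 on the others.

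The CA10 minus NHD13 difference of Clec4a3 was not the same in the 4 tissues, with 1.88 in leukemic spleen, 0.18 in lineage-negative marrow, -0.37 in whole marrow and 0.02 in thymus (limma moderated F test, adjusted p = 0.0248). In that test 10.9% of all genes passed, and without the second CA10 whole marrow 0 members did. The Clec4a3 means in lineage-negative marrow were below the lowest array median of 5.44. The cause was not tested for any of these values.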

How the results depend on the processing

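Counts are of the 8 members called, and the cause of a change was not tested. The number of all genes called is not given beside each count and can change as well. In CA10 leukemic against CA10 healthy spleen it was 127 without the fifth healthy array and 1413 without the first. A changed count is therefore not read as particular to the members. Where the C57B6 difference was subtracted, it was taken from the NHD13 values only. In CA10 against NHD13 leukemic spleen (2 called), 1 was called with no filter, with only the groups compared, with the replicate block, with the Gapdh covariate and without the arrays that stood apart, 4 with the mean of a gene's probe sets, 5 with any probe set and 5 with the C57B6 difference subtracted. In CA10 leukemic against CA10 healthy spleen (3 called), 5 were called with the mean and with any probe set, 7 with all 57 arrays, 0 with the replicate block and 4 with the Gapdh covariate, which kept only Cx3cr1 of the 3. In NHD13 leukemic against wild-type spleen (4 called), 2 were called with the mean of probe sets, and with the C57B6 difference subtracted 2 were called, F13a1 higher and Csf1r lower. In CA10 leukemic against wild-type spleen (6 called), 5 were called with no filter and with quantile normalization, both without Cd68. In CA10 against NHD13 lineage-negative marrow (0 called), 1 was called without the arrays that stood apart. In NHD13 against wild-type lineage-negative marrow (0 called), 2 were called with the Gapdh covariate and without those arrays, and 1 with the C57B6 difference subtracted. In CA10 against NHD13 whole marrow (1 called), 3 were called with any probe set, 2 with only the groups compared and with the replicate block, and 0 with all 57 arrays, the array set as a block, the Gapdh covariate or the C57B6 difference subtracted. In CA10 against wild-type whole marrow (0 called), 2 were called with the replicate block and 5 with C57B6 marrows as the control, which gave 3 in NHD13 (0 called), all 8 of these lower in the transgenic marrow. In CA10 against NHD13 thymus (0 called), 1 was called with the C57B6 difference subtracted. In C57B6 against other wild-type marrow (4 called), 2 were called with the mean of probe sets and with the replicate block. The F test (1 called) gave 2 with the mean of probe sets and with quantile normalization.

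With 1 array left out at a time, the counts ran from 1 to 3 in CA10 against NHD13 leukemic spleen, 0 to 7 in CA10 leukemic against CA10 healthy spleen, 0 to 6 in CA10 leukemic and 0 to 5 in NHD13 leukemic against wild-type spleen. The lowest counts against wild-type spleen came from fits with 1 wild-type spleen left and rest on that single array. The counts ran from 0 to 1 in CA10 against NHD13 and 0 to 2 in NHD13 against wild-type lineage-negative marrow, the changes coming without the third NHD13 array. They ran from 0 to 1 in CA10 against NHD13 whole marrow, 4 to 6 in C57B6 against other wild-type marrow, 0 to 3 in the F test and 4 to 7 of 16 probe sets in leukemic spleen. They were 0 throughout in the other comparisons. The count of 2 in leukemic spleen was 1 without any 1 of 5 CA10 arrays (all but the fifth) or without the first, the third or the fourth NHD13 array, and Clec4a3 was called in 12 of these 12 fits.

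Sign changes of single values with an unadjusted p under 0.05 as reported, or called under the alternative, numbered 10. With C57B6 marrows as the control, CA10 against wild-type whole marrow gave -1.18 for Ccr2 and -1.31 for Csf1r, and NHD13 gave -1.29 for Ccr2, -1.15 for Csf1r, -1.25 for Cx3cr1 and -0.55 for Cd68. With the C57B6 difference subtracted, Cd68 was 0.26 in CA10 against NHD13 and -0.55 in NHD13 against wild-type whole marrow, and Fcgr1 was -0.01 in NHD13 against wild-type thymus. With the mean of its probe sets, Fcgr1 was 0.07 in CA10 against NHD13 whole marrow. Of the other single values in fits that left out no single array, 1313 stayed on their side of the threshold, 87 of them with a changed sign, 37 passed it newly and 32 lost it. The replicate block left the lineage-negative counts at 0. Elsewhere 0 to 3 arrays of a comparison correlated best with their own number, 3 of 6 in CA10 against NHD13 leukemic spleen. Whether same-numbered arrays share more than a number is not in the labels. Signals near the filter, as on the second Cx3cr1 and Fcgr1 probe sets, limit what can be seen.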
